A study of Rattus norvegicus with 2 samples.

Results

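The genes described here encode the aminoacyl-tRNA synthetases, the enzymes that attach each amino acid to its transfer RNA. Its members were found by gene name, from a list of 35 symbols, and the rule uses no measured value. It holds 19 genes of cytosolic enzymes and 16 genes of mitochondrial enzymes. All 35 had a probe well above background on both arrays, among 11255 genes with a symbol that did so. The symbols on the array are older for many of them (Cars for Cars1, Eprs for Eprs1), and those for aspartate are not in the list.

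The study exposed IEC6 cells, an epithelial line from rat small intestine, to sodium trisulfide (Na2S3), an inorganic polysulfide, for 60 min, and compared them with cells given water for 60 min. Cells grew in DMEM with 10% fetal calf serum, and the exposure took place in DMEM with 0.1% serum. The dose is 100 µM in the label of the treated sample but 100 mM in the treatment protocol, and which is meant was not settled. Total RNA of each group was labelled with Cy3 and hybridised to 1 Agilent single-colour array. With 1 array per group no test between the groups is possible, so "higher" and "lower" describe this pair of arrays and no p-value is given.

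Synthetases read the genetic code at the step before the ribosome: a tRNA that carries no amino acid signals shortage through the kinase GCN2, which favours translation of the transcription factor ATF4. ATF4 binds a short DNA element, the amino acid response element, near genes for amino acid transport, amino acid synthesis and several cytosolic synthetases. Most mitochondrial synthetases come from separate nuclear genes, whereas the glycyl and lysyl enzymes of both compartments come from Gars1 and Kars1. Cysteinyl-tRNA synthetases are also known to form cysteine persulfide, a sulfur species related to the polysulfide used here.

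The water array had 49.5% and the Na2S3 array 49.0% of its 45598 probes well above background. Levels are given as relative signal, the processed intensity divided by that array's 75th percentile over probes, and differences as the log2 ratio of the Na2S3 array over the water array. The spot error beside a ratio is the SD expected from repeat spots of probes with similar brightness. It covers noise within the arrays and not the spread between cultures. Of 12 markers of small intestinal epithelium, 5 were measured. On the water array Krt8 had a relative signal of 38.4, Cdh1 35.6 and Cdx1 5.05, while Krt19 at 0.52 and Krt18 at 0.34 were dim. Epcam, Vil1, Cdx2, Lgr5, Fabp2 and Alpi were not well above background on either array. Of 8 listed mesenchymal genes, 7 were measured, and Pdgfra was not well above background. Col3a1 at 222, S100a4 at 193, Col1a1 at 173, Vim at 93.6 and Col1a2 at 81.7 were bright on the water array. Thy1 at 0.31 and Acta2 at 0.16 were dim. The log2 ratios of the 7 mesenchymal genes ran from -0.43 to 0.033, against -0.23 to 0.019 for the 5 epithelial markers. The medians were -0.27 and -0.052. Of the mesenchymal markers 5 of 7 were below 0, as were 6139 of all 11255 measured genes. The spot errors of those 5 ran from 0.056 for Col1a1 to 0.19 for Thy1 and Acta2. Of 6 immune and endothelial markers, 4 were measured, all below 0 (median -0.29), from -0.35 for the endothelial gene Vwf to -0.11 for Tek. Their spot errors were 0.096 for Vwf, 0.082 for Tek, 0.19 for Cd68 (-0.27) and 0.52 for Ptprc (-0.32), so the sign of Ptprc is not fixed. The part of cell makeup in the ratios below was not tested, and in such bulk RNA fewer cells of a type and less RNA per cell cannot be told apart.

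Genes of cytosolic synthetases stood higher in the Na2S3 array, by modest amounts. Of the 19 genes, 17 had a ratio above 0, as did 45.5% of all measured genes, and 5 were at least 1.5-fold higher, against a background of 2.84%. The cytosolic median was a log2 ratio of 0.31 (1.24-fold), beside -0.026 over all measured genes. No cytosolic gene was at least 1.5-fold lower, where 2.49% of all genes were. Only Cars1 among the 35 genes reached 2-fold, a mark that 0.942% of all genes passed upward. The 19 ratios ran from 1.14 for Cars1 to -0.047 for Qars1.

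**Figure D1:**
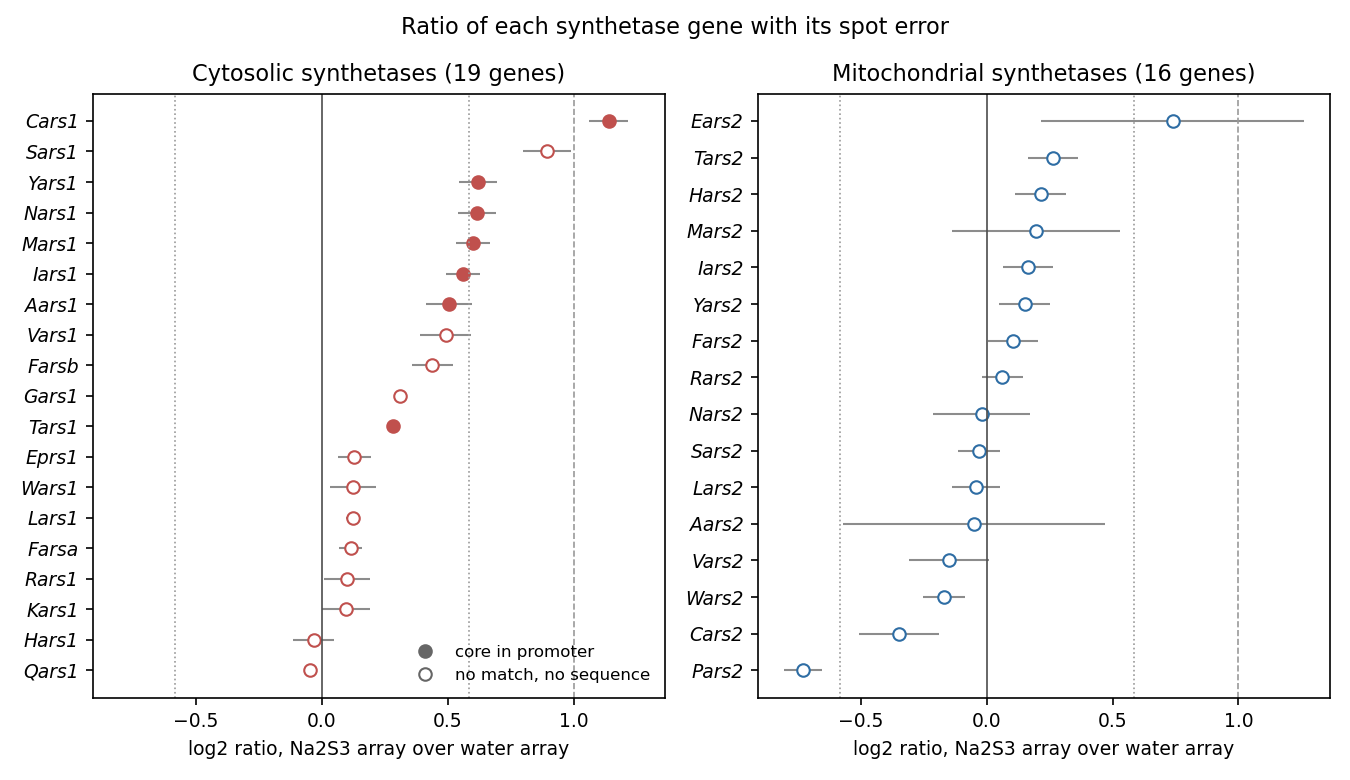
Log2 ratio of each synthetase gene (x axis, Na2S3 array over water array) for 19 cytosolic (left) and 16 mitochondrial (right) genes; bars are the spot error, dotted lines mark 1.5-fold and the dashed line 2-fold. Filled points have the amino acid response element core in their promoter, and all of them are cytosolic genes with ratios from 0.28 to 1.14.

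Cars1, the gene of cysteinyl-tRNA synthetase, had a relative signal of 1.66 on the water array and 3.66 on the Na2S3 array. Its log2 ratio of 1.14 (2.20-fold, spot error 0.076) was the largest of the set. Sars1, which encodes seryl-tRNA synthetase, went from 3.48 on water to 6.47 on Na2S3, a log2 ratio of 0.89 with a spot error of 0.096. Both ratios lay several spot errors above the 1.5-fold mark, which is 0.58 on the log2 scale. Each rests on 1 probe and 1 spot per array. The spot error does not cover the spread between probes of a gene (SD 0.23 over genes with several measured probes). Yars1, the tyrosyl enzyme gene, had 1.89 on water and 2.90 on Na2S3 (log2 ratio 0.62). Nars1, the asparaginyl enzyme gene, had 2.14 and 3.28 (0.62). Mars1, which encodes the methionyl enzyme that also charges the initiator tRNA, had 6.10 and 9.25 (0.60). The spot errors of these were 0.076 for Yars1, 0.076 for Nars1 and 0.068 for Mars1, so each lay within its spot error of the 1.5-fold mark.

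The probes behind Cars1, Sars1, Mars1 and Yars1 are printed because they are 4 of the 5 cytosolic genes past 1.5-fold. Each is 60 bases long, is given 5′ to 3′ as deposited, and has at least 1 reading frame without a stop codon. In the rn4 coordinates of the files the Cars1 probe lay at chr1:203935467-203935526 and the Yars1 probe at chr5:148378176-148378235. The Sars1 probe spanned 867 bases (chr2:203996297-203997163) and the Mars1 probe 561 bases (chr7:67253210-67253770), so each of those crosses an exon junction. Whether a probe lies in coding sequence or in a UTR was not analysed here.
Cars1: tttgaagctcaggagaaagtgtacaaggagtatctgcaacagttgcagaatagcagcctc
Sars1: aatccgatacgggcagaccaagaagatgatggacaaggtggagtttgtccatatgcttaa
Mars1: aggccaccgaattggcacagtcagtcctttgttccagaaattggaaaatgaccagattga
Yars1: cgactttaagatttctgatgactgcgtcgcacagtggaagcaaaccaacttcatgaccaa
None of the 43 probes of the 35 genes shared a stretch of 25 bases with any other probe on the array.

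A further 6 cytosolic genes stood higher by less than 1.5-fold. Iars1, the isoleucyl enzyme gene, lay just outside the mark, with a relative signal of 6.15 on water and 9.08 on Na2S3 (log2 ratio 0.56), while Mars1 at 0.60 lay just inside it. Aars1, the alanyl enzyme gene, had 13.3 and 18.9 (0.51). Vars1, the valyl enzyme gene and the dimmest cytosolic member, had 0.588 and 0.827 (0.49). Farsb, which encodes the beta subunit of the phenylalanyl enzyme, had 1.1 and 1.49 (0.44), whereas its partner Farsa, the alpha subunit, had 23.4 and 25.3 (0.12). The ratios of these subunit genes differed by more than the spot errors of 0.082 and 0.046, but each gene rests on a single probe. Over genes with several measured probes, the SD between probes of a gene was 0.23, so this difference may lie with the probes and was not tested. Gars1, the brightest member and the glycyl enzyme gene of both compartments, had 70.9 on water and 88.0 on Na2S3 (0.31). Tars1, the threonyl enzyme gene, had 21.9 and 26.6 (0.28).

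The remaining cytosolic genes were close to equal on the arrays. Eprs1, which encodes a fused glutamyl and prolyl enzyme, had 12.6 on water and 13.8 on Na2S3 (log2 ratio 0.13). Wars1 for tryptophan had 14.5 and 15.8, Lars1 for leucine 17.2 and 18.8, and both had a ratio of 0.12. Rars1 for arginine had 10.9 and 11.7 (0.099), and Kars1, the lysyl enzyme gene of both compartments, had 6.0 and 6.41 (0.095). Hars1 for histidine had 1.35 and 1.32 (-0.033). Qars1 for glutamine had 29.6 and 28.6 (-0.047), and its ratio was above 0 at 0.045 to 0.049 after loess, after quantile normalization and in the deposited value table.

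Repeat spots show how tightly a ratio is fixed within the arrays. Of the 35 genes, 8 were read by more than 1 spot, all of them cytosolic, and 27 by 1 spot per array. The 10 spots of Gars1 had ratios from 0.20 to 0.35 (mean 0.31, SD 0.05 over spots), and the 9 spots of Tars1 from 0.14 to 0.34 (mean 0.28, SD 0.06). The 10 spots of Lars1 ran from 0.056 to 0.22 (mean 0.12, SD 0.05). All spots of these 3 genes were above 0. Spots of Qars1 lay lower, from -0.097 to 0.057 (mean -0.047, SD 0.04, 10 spots), and did not overlap those of Gars1 or Tars1. The paired spots of Mars1 gave 0.58 and 0.62, and those of Iars1 0.54 and 0.59. Spots of 1 array share their RNA, so these spreads are technical.

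**Figure D2:**
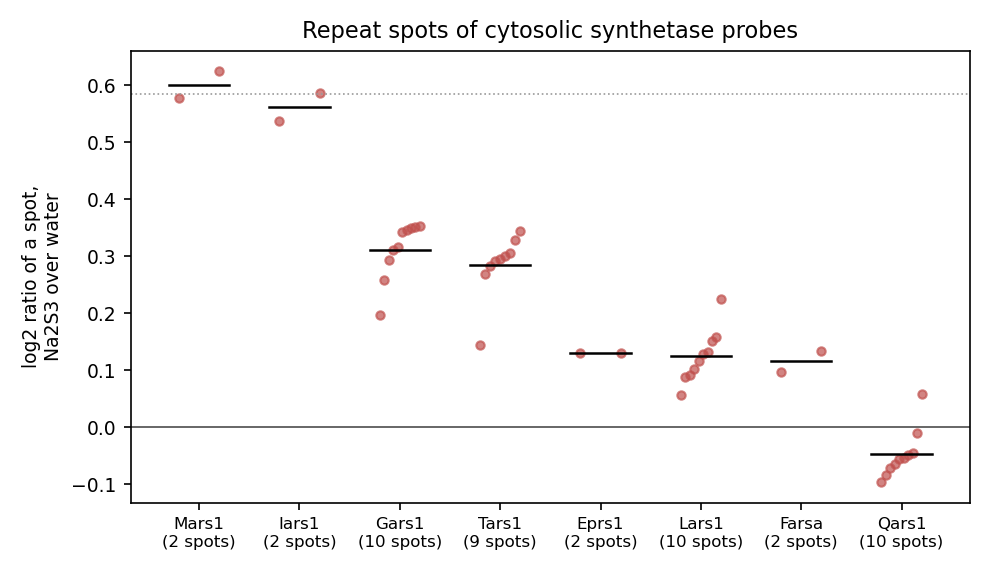
Log2 ratio of each spot (y axis, Na2S3 over water) for the 8 cytosolic synthetase genes read by more than 1 spot; points are spots, black lines their means and the dotted line 1.5-fold. Spots of Gars1 and Tars1 lie between 0.14 and 0.35, and those of Qars1 between -0.097 and 0.057.

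Where different probes read the same gene, they differed more than repeat spots did. Over 3028 genes with several measured probes, the SD between probes of a gene was 0.23. For Gars1 the brighter probe gave 0.31 and a dimmer one, starting at base 919 of the transcript instead of 2342, gave 0.59. The probes of Wars1 gave 0.12 and 0.19. Lars1 split in sign, with 0.12 at the bright probe and -0.12 at a dimmer one. Both probes of Hars1 were below 0, at -0.033 and -0.18. The cytosolic genes other than these 4 each rest on a single probe.

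Ratios were also set out by the physical groupings of the enzymes. Of the cytosolic enzymes in the list, 7 sit in the multi-tRNA synthetase complex, a particle that holds Eprs1, Iars1, Kars1, Lars1, Mars1, Qars1 and Rars1 products together. The genes of these 7 had a median log2 ratio of 0.12, from -0.047 for Qars1 to 0.60 for Mars1, and 1 was at least 1.5-fold higher. The other 12 cytosolic genes had a median of 0.47, from -0.033 for Hars1 to 1.14 for Cars1, and 4 passed 1.5-fold. Over all measured genes 2.84% were at least 1.5-fold higher. Those 4 (Cars1, Sars1, Yars1 and Nars1) were each read by 1 spot per array, whereas most genes of the complex had repeat spots. They were also dimmer on the water array than any gene of the complex. Scaffold genes of the complex were near 0, with Aimp1 at -0.0053, Aimp2 at 0.051 and Eef1e1 at 0.17. By catalytic fold, the 9 class I genes had a median of 0.49 and the 9 class II genes 0.31, and Eprs1 holds both folds. Members of a group are not replicates, and these differences between groups were not tested.

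Genes of mitochondrial synthetases were centred on 0. Of the 16, 8 had a ratio above 0, beside 45.5% of all genes, and 8 below it, with a median of 0.021. Ears2 alone passed 1.5-fold upward (2.84% of all genes) and Pars2 alone downward (2.49%). They were also dimmer, with a median relative signal of 0.790 on water against 6.15 for the cytosolic genes. Each was read by 1 spot per array.

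Pars2, the mitochondrial prolyl enzyme gene, stood lowest of all 35. Its relative signal was 3.95 on water and 2.38 on Na2S3, a log2 ratio of -0.73 (1.66-fold lower, spot error 0.076), and it was -0.64 with normexp background correction. Its other probe was dim, below the background limit on both arrays. Cars2, the mitochondrial cysteinyl enzyme gene, had 0.401 and 0.315 (-0.35, spot error 0.16). Ears2, the glutamyl enzyme gene, was highest of the mitochondrial group at 0.74, from 0.0544 on water to 0.0908 on Na2S3. At that brightness the spot error was 0.52, the ratio was 0.19 with normexp, and the other Ears2 probe was below the background limit, so the position of Ears2 is not fixed by these arrays.

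The other 13 mitochondrial genes lay between -0.17 and 0.26. Tars2 had 0.795 on water and 0.954 on Na2S3 (0.26), Hars2 0.920 and 1.07 (0.21), and these were the highest of them. The dim Mars2 followed at 0.20 with a spot error of 0.34, and its ratio was -0.066 with normexp. Then came Iars2 at 0.16, Yars2 at 0.15, Fars2 at 0.11 and Rars2 at 0.061. Those just below 0 were Nars2 (-0.019), Sars2 (-0.031), Lars2 (-0.042) and Aars2 (-0.052), and apart from Sars2 each of these was above 0 under at least 1 other setting. Lars2 has a dimmer second probe, which gave -0.38. Vars2 had 0.416 and 0.374 (-0.15), and Wars2, the brighter of them, had 1.67 and 1.48 (-0.17).

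Setting enzymes of the same amino acid side by side gives 17 pairs over 16 amino acids. The cytosolic gene had the higher ratio in 15 pairs and the mitochondrial gene in 2, with a median difference of 0.40. Cysteine had the widest gap, at 1.49 between Cars1 (1.14) and Cars2 (-0.35). Serine followed with 0.93 between Sars1 and Sars2, and proline with 0.86 between Eprs1 and Pars2. Valine and asparagine also differed by more than 1.5-fold, at 0.64 each. At the other end, the differences were 0.038 for arginine, 0.022 for threonine and 0.010 for the pair of Farsa and Fars2, all within their spot errors. Histidine ran the other way, with Hars1 at -0.033 and Hars2 at 0.21. The glutamate pair of Eprs1 and Ears2 did so too (-0.61), but rests on the dim Ears2 spot. Eprs1 enters with both glutamate and proline, and Fars2 with both Farsa and Farsb.

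**Figure D3:**
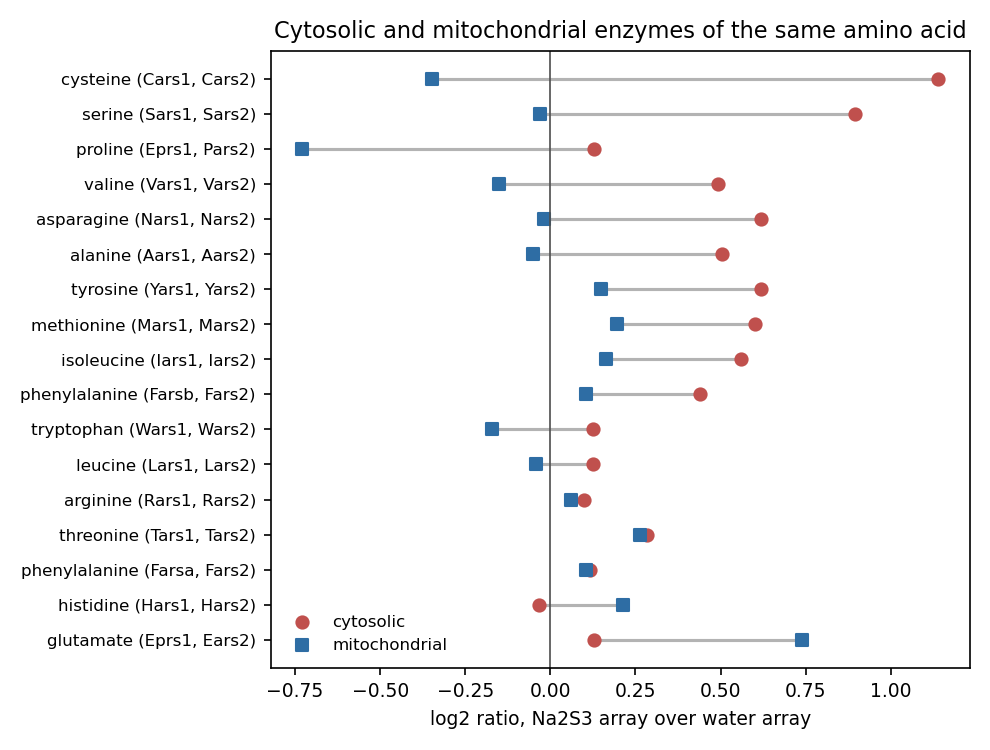
Log2 ratios (x axis, Na2S3 over water) of cytosolic (circles) and mitochondrial (squares) synthetase genes for the same amino acid, ordered by their difference. The cytosolic gene lies to the right in 15 of 17 pairs, most of all for cysteine.

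Brightness differed between the compartments, so the ratios were also read against genes of similar signal. Among all genes with a mean relative signal of 1 to 4, the median ratio was 0.014, and 2.05% were at least 1.5-fold higher. The 5 cytosolic genes there had a median of 0.62, and Cars1, Nars1 and Yars1 were at least 1.5-fold higher. From 4 to 16 the median of all genes was -0.019 and that of 8 cytosolic genes 0.32. Of those 8, 2 were at least 1.5-fold higher, as were 1.55% of all genes in that range. Above 16 it was -0.096 over 1663 genes, of which 25.4% were above 0. The 5 cytosolic genes in that range had a median of 0.12 and 4 were above 0. Of them 0 passed 1.5-fold, where 0.962% of all genes in that range did. Brighter cytosolic genes tended to have smaller ratios (Pearson r -0.41, Spearman rho -0.41, across 19 genes of the same arrays, which share scaling and are not replicates). Of the 18 cytosolic genes with a relative signal of at least 1 on both arrays, 16 were above 0, where 44.1% of all such genes were, and 5 passed 1.5-fold, where 1.5% did. Of the 5 mitochondrial genes that bright, Rars2 alone was above 0. Of the mitochondrial genes, 11 had a mean relative signal below 1, with a median ratio of 0.15, where the median of all genes was -0.015. Those with a mean signal of 1 to 4 had a median of -0.10 (4 genes), against 0.62 for the cytosolic genes of that range.

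**Figure D4:**
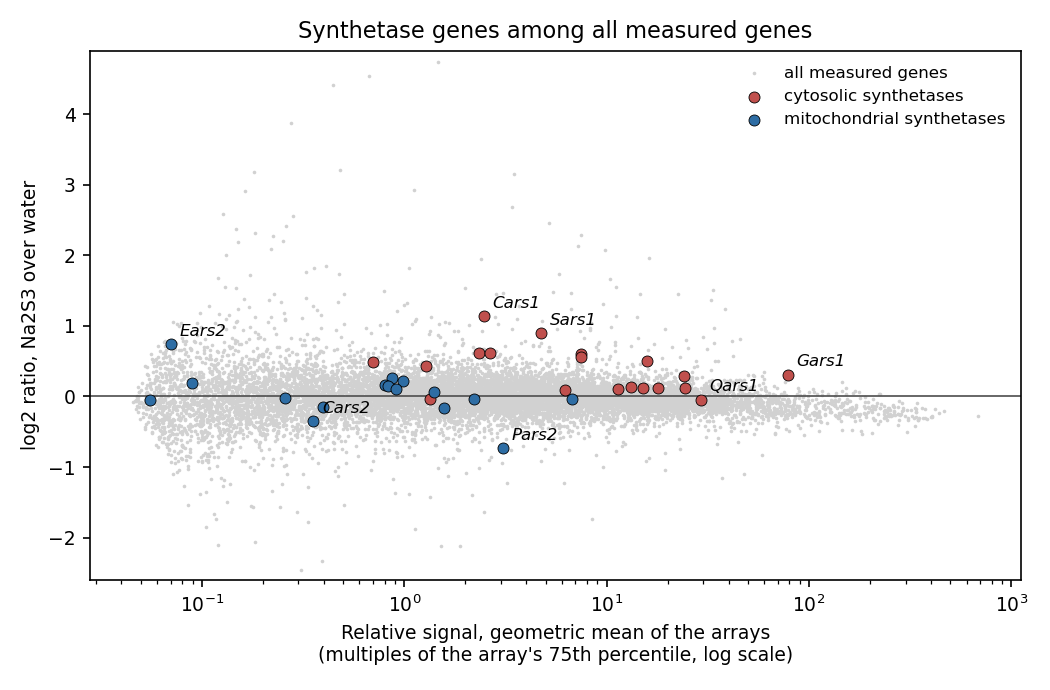
Log2 ratio (y axis) against relative signal (x axis, log scale) for all 11255 measured genes (grey), 19 cytosolic synthetase genes (red) and 16 mitochondrial ones (blue). Cytosolic genes lie mostly above 0 across the range of signal, with Cars1 at 1.14 the highest, while Pars2 at -0.73 is the lowest member.

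Promoters were searched for the core of the amino acid response element, TGATGNAA, on both strands, in the 300 bases from 250 before to 50 after the start of each gene (RefSeq, GRCr8). The core was found in 7 of the 17 cytosolic genes with a sequence (41.2%) and in 0 of 16 mitochondrial genes, against 4.16% of 27457 genes of any kind. Gars1 and Rars1 are not in the table. The 7 genes were Cars1, Yars1, Nars1, Mars1, Iars1, Aars1 and Tars1, with log2 ratios from 0.28 to 1.14 and a median of 0.60. Of them, 4 were at least 1.5-fold higher. The 10 cytosolic genes without a match had a median of 0.12, from -0.047 to 0.89, and Sars1, at 0.89, was the 1 among them past 1.5-fold. No match says only that these letters are not in that window.

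The matched stretches of 6 of these genes are shown because the counts of matches rest on them, each read 5′ to 3′ on the strand that carries the core, with the core in capitals and up to 10 flanking bases in lower case.
Cars1: ttccagaatcTGATGCAAccgcggcgcc
Yars1: cgagctcagcTGATGCAAcctg
Nars1: ctaggtgatcTGATGCAAcgcttcagtc
Mars1: gagcccacgcTGATGCAAccggaacggg
Iars1: cgtctggaggTGATGCAAtactgacagt
Tars1: gctaaccagcTGATGCAAcgggacgcca

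In the direction of the gene, the core of these 6 began 14 bases before the start in Nars1, 17 in Mars1, 24 in Iars1 and 27 in Tars1, and 18 after the start in Cars1 and 39 after it in Yars1. In GRCr8 coordinates the stretches lie at chr1:208225335-208225362 for Cars1, chr2:62114812-62114839 for Tars1, chr5:146820191-146820212 for Yars1 and chr7:65023753-65023780 for Mars1. Those of Iars1 (chr17:15193659-15193686) and Nars1 (chr18:60275779-60275806) follow. The core of the antioxidant response element, TGACNNNGC, was searched alike and is bound by the factor NRF2 and its relatives in genes of redox defence. It was found in 4 of 17 cytosolic (23.5%) and 3 of 16 mitochondrial genes (18.8%), against 13.1% of all genes. Those 4 cytosolic genes were Nars1, Iars1, Aars1 and Vars1, with a median ratio of 0.53, beside 0.13 for the 13 cytosolic genes without it. The contrast in medians between genes with and without a match was thus of similar size for both cores, and 3 genes hold both. The counts differed: 1 of 4 genes with the antioxidant core and 4 of 13 without it passed 1.5-fold. For the amino acid response core these were 4 of 7 and 1 of 10, beside 2.84% of all measured genes. No match overlapped one of the other core. A match describes letters in a sequence and no binding was measured.

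Median ratios of genes that work beside the synthetases were closer to 0 than that of the cytosolic synthetase genes (0.31). The median of the mitochondrial synthetase genes was closer still (0.021), but their ratios spread more widely, from -0.73 to 0.74. Of 12 genes for other tRNA charging steps and tRNA ends, 11 were measured and the median ratio was 0.083. Of these, 0 passed 1.5-fold either way, where 2.84% of all genes did upward and 2.49% downward. Elac2, which trims tRNA ends, had 0.19, Sepsecs of selenocysteine synthesis 0.17, Dtd1, which clears mischarged D-amino acids, -0.12, and Trnt1, which adds the CCA end, 0.12. Of 10 mitochondrial translation factors, 9 were measured with a median of 0.078 and 0 past 1.5-fold, beside the same shares of all genes. Highest was Mrrf, a ribosome recycling factor gene, at 0.41 with a spot error of 0.19. In lists this short, such shares would often leave no gene past the mark. The 6 cytosolic elongation factor genes were below 0, at a median of -0.13 and -0.25 for Eef1b2, but 5 of the 6 were above 0 after quantile normalization and in the deposited value table. They hold no settled direction.

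Amino acid response genes that are no synthetases ranged widely. Of 30 listed, 27 were measured, and 26 were above 0 (45.5% of all measured genes). Of the 27, 18 passed 1.5-fold upward (2.84% of all genes) and 12 of those passed 2-fold (0.942%). The median of the 27 was 0.83. With a stricter filter on dim probes 19 were measured, 11 passed 1.5-fold and 5 passed 2-fold. Over all 6838 genes left by that filter, 96 and 32 did. This list was put together with earlier results of these arrays known, so neither its direction nor its size is independent evidence. Its lowest members lay among the synthetase genes, with Psat1 at 0.19, Atf5 at 0.15, Phgdh at 0.10 and Pycr1 at -0.0076. Atf4 itself had a relative signal of 34.3 on water and 60.5 on Na2S3 (0.82, 10 spots). The stress factor gene Atf3 led the list at 4.75, before Trib3 at 4.54, the mTORC1 inhibitor gene Sesn2 at 3.21 and Chac1 of glutathione breakdown at 2.93. Asns, which makes asparagine, had 0.83, beside 0.62 for Nars1, which charges it. The core TGATGNAA was in the promoter of 6 of the 27 listed genes with a sequence (22.2%), against 4.16% of all genes. These were Trib3, Chac1, Slc1a4 (1.73), Slc7a1 (1.05), Nupr1 (0.67) and Pycr1, the 1 measured gene of the list below 0 (spot error 0.029). All 27 measured genes were above 0 with normexp, quantile normalization, spike-in scaling, loess and the deposited value table. The sign of Pycr1 is thus not fixed.

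The highest ratios moved little with the processing, while Gars1 ran from 0.31 to 0.48 and Ears2 from 0.19 to 0.83. Under 10 settings Cars1 ran between 1.07 and 1.16, Sars1 between 0.89 and 0.93 and Mars1 between 0.60 and 0.65. With normexp background correction, Nars1 (0.57) and Yars1 (0.54) dropped below 1.5-fold, which left 3 cytosolic genes past that mark. Iars1 passed the mark, at 0.59 to 0.61, after quantile normalization, after loess and in the deposited value table.

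**Figure D5:**
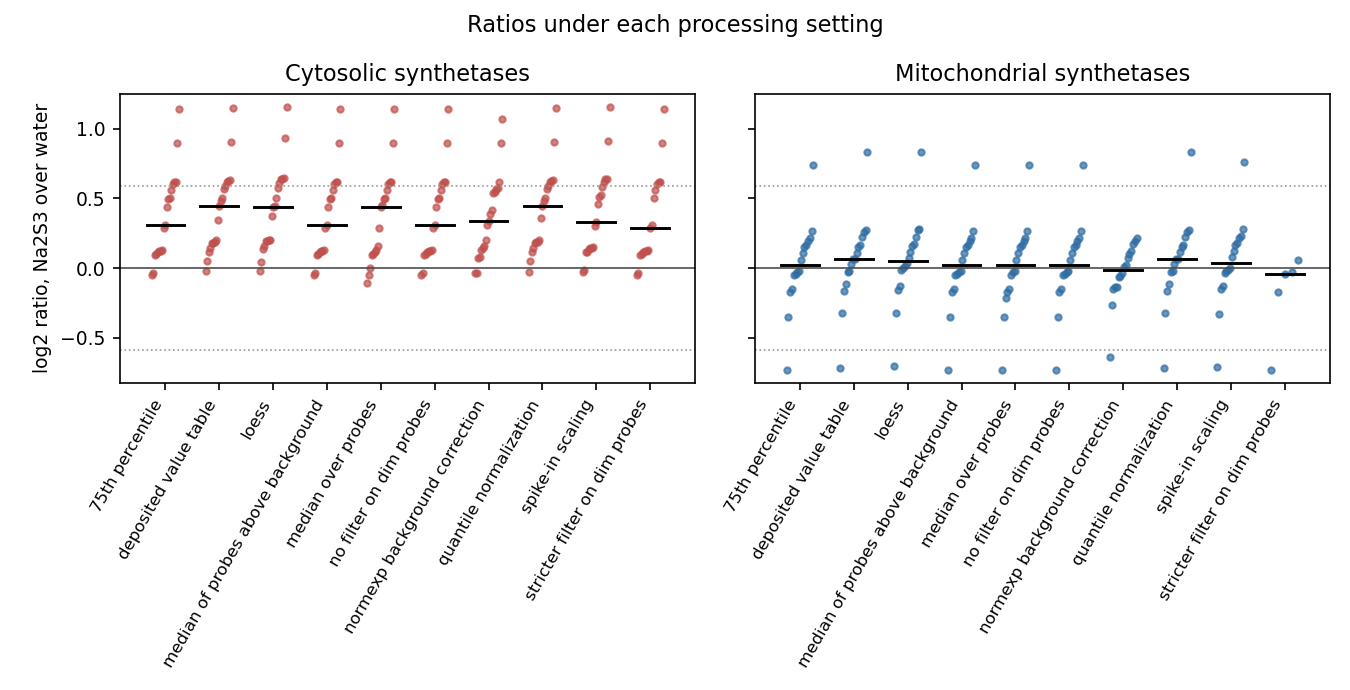
Log2 ratios (y axis, Na2S3 over water) of cytosolic (left) and mitochondrial (right) synthetase genes under each processing setting (x axis); points are genes, black lines medians and dotted lines 1.5-fold. The cytosolic median lies between 0.28 and 0.45 and the mitochondrial one between -0.042 and 0.066.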

How the data were processed

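The scanner files hold linear spot intensity values, background-subtracted and detrended within each array, per the file headers, which name Feature Extraction 10.7.1.1. Version 9.5.1.1 stands in the submitters' processing notes. The deposited value table also holds linear intensity values, but how the authors normalized it is not stated in the sources used here. Outlier spots (448 and 390) were left out and 0 member spots were saturated. Spots of 1 probe were averaged as log2 intensity. The 75th percentile of each array (413 and 478 units, a log2 shift of 0.21) was then subtracted. The number of arrays limits the precision.

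A probe was well above background when over 50% of its spots carried that flag. A gene's value is its brightest such probe. Of 43 member probes, 39 were matched by accession to the GRCr8 gene table, and all 39 to the same gene. Other genes took their symbol from that table or from the file. Provisional identifiers were left out of gene counts. Spot errors pool the within-probe SD of spot ratios in bins of signal.

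With 1 array per group, genes were counted by size (1.5-fold and 2-fold). All members were named, and up to 4 genes of each other list with the largest ratios. Other genes named, such as Atf4, Asns, Slc7a1 and Pycr1, were chosen after their values were seen. Members and lists were chosen with earlier results of these data known. The promoter stretch of 1 gene is not reported here. The gene-value step was tested on simulated data. Alternatives were normexp (limma 3.58.1, offset 50), quantile, median, spike-in and loess scaling, the deposited table, filters on dim probes and the median over probes.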

Additional observations from a re-analysis of the deposited data

Results flagged for a closer look

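A probe outside the name rule, deposited under a transcript identifier (ENSRNOT00000071890) and described in the file as glutamine-tRNA ligase-like, was well above background on the Na2S3 array alone. Its relative signal was 0.0468 on water and 0.0897 on Na2S3. The log2 ratio of these signals was 0.94 (1.92-fold) with a spot error of 0.52. Since the water signal was below the background limit and the spot error is large, the size of this difference is not fixed. A probe described as mitochondrial isoleucyl-tRNA synthetase (ENSRNOT00000057395), above background on both arrays, had 0.0708 and 0.0778 (0.14, spot error 0.34). Qars1 itself, at a relative signal of 29.6 on water, had -0.047.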

How the results depend on the processing

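No paired analysis was possible because each group holds 1 array. Under the alternatives 26 values of single synthetase genes moved by more than the spot error, most of them of repeat-spotted genes, whose error is small. The filters cannot move a gene's value, and the median over probes moves it only where several probes were measured. The difference between cytosolic and mitochondrial medians was 0.29 and ran up to 0.42 (median over probes). Counts of synthetase genes and of all genes changed by over 1.5 times as follows. With normexp, 3 cytosolic and 0 mitochondrial genes were at least 1.5-fold higher, and over all genes 166 passed 1.5-fold upward (320 as reported), 58 passed 2-fold upward (106) and 124 passed 1.5-fold downward (280). Without a filter on dim probes these counts over all genes were 1203, 615 and 1609 of 18434. With a stricter filter they were 96, 32 and 61 of 6838, 0 of 5 mitochondrial genes were 1.5-fold higher, and 11 and 5 of 19 amino acid response genes passed 1.5-fold and 2-fold (18 and 12 of 27 as reported). Among the 8 cytosolic genes read by more than 1 spot, an alternative added after seeing the data, 1 passed 1.5-fold and 0 passed 2-fold, with a median of 0.21. Of the 11 read by 1 spot, 4 passed 1.5-fold and 1 passed 2-fold, with a median of 0.49. Over all measured genes 2.84% and 0.942% passed these marks upward. The cause was not tested. Dim mitochondrial probes limit what can be read: at the brightness of Ears2 and Aars2 the spot error was 0.52, against 0.076 for Cars1.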
